A study of Homo sapiens with 21 samples.

Results

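BFTC909, an established human cell line from a transitional cell cancer of the renal pelvis, was kept at 1% O2 for 18 h after knockdown of METTL4, and its RNA was compared with that of control cells under the same hypoxia. The comparison rests on 4 of the 21 RNA-seq libraries of the series. A pair of libraries carried the knockdown (METL4-si in the labels, METTL4-si below) and a pair carried the scrambled control (Scramble-si, Scr-si below). A further pair of Scr-si libraries from normoxia (18% O2 for 18 h) entered the same fit and is quoted as the level without hypoxia. Of the 17232 genes in the table of this cell line, 14869 had 2 or more of the 6 libraries at 1 or above and were tested, and these genes are the subject here. A value is a CPM (reads of a gene scaled to library size) after TMM scaling, which equalises libraries that differ in RNA composition. The growth note in the labels names FADU cells and DMEM for these libraries too, while their titles name BFTC-909. The study's methods describe lentiviral vectors that express short hairpin RNA, and the sources used here do not say which construct the sequenced cells carried. Nothing in the labels says that the libraries of a group came from separate cultures, so the p-values measure the spread between these libraries, which may be technical.

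METTL4 belongs to a family of methyltransferases that act on the N6 position of adenine, and it has been described as a writer of this mark in DNA and in small nuclear RNA. Under low oxygen the prolyl hydroxylases of the EGLN family stop marking HIF-1α for destruction by VHL, and the stabilised factor pairs with ARNT and binds short elements that contain ACGTG or GCGTG. The genes it switches on supply glucose and export acid, brake mitochondrial work, recruit vessels and stiffen the matrix. The question of the comparison was how far the RNA profile of hypoxic cells depends on METTL4.

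METTL4 (ENSG00000101574), on chromosome 18 from 2537524 to 2571508 (GRCh37, minus strand), had values of 20.8 and 18.9 in normoxia, 19.03 and 15.6 in hypoxic Scr-si cells and 14.4 and 12.2 in METTL4-si cells. Both METTL4-si libraries lay below both Scr-si libraries. The difference was 1.28-fold (log2 fold change -0.36, SE 0.129, adjusted p = 0.0717 by limma) and did not pass the threshold. Of 17 alternative fits 15 left it short of the threshold, among them that without METTL4-si replicate 2 (-0.25, adjusted p = 0.0911). It passed with each library centred on its median (-0.45, adjusted p = 0.0410) and without METTL4-si replicate 1 (-0.46, adjusted p = 0.0040). Protein was not measured in these libraries.

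A gene counted as changed when limma gave a Benjamini-Hochberg adjusted p under 0.05 and the difference was at least 1.3-fold on the log2(value + 1) scale. By this rule 1968 genes (13.2%) were higher and 1736 (11.7%) were lower in METTL4-si cells. The change was at least 2-fold for 444 of the higher and 280 of the lower genes. Counts in the lists below are to be read against the shares of 13.2% and 11.7%. A gene that reached 1 only in the METTL4-si libraries could enter the test only as higher there. Among list members this holds at least for OAS2, BST2, DHX58, EGR2, C2, CLU and DUSP6. Genes that did so only in the hypoxic Scr-si libraries, among them RORA, PTGS2 and TEK, could enter only as lower. The genes that rose had a median log2 fold change of 0.68 and included 1734 protein-coding genes and 142 lncRNAs, while those that fell had a median of -0.60 and included 1357 protein-coding genes and 182 lncRNAs. Over all tested genes the median was 0.01. Centring each library on its own median moved this to -0.09 and the split to 1489 higher and 2510 lower, so that the share of higher genes among the changed genes went from 53.1% to 37.2%. Single genes below are those that changed most or that have a role in the list described.

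The libraries held between 19038795 and 24126269 reads on genes. METTL4-si replicate 2 stood apart. Replicates differed by a chi-square of 2.18 per degree of freedom in normoxia and 4.14 in hypoxic Scr-si cells, and by 25.7 in METTL4-si cells. In METTL4-si replicate 2, 253 genes were at least 2-fold above replicate 1 and 0 genes were as far below it, whereas the other groups had between 5 and 9 genes in each direction. Of these 253 genes 48 had been called higher, 0 lower, and 205 did not pass. The largest excess was in KRT8, a keratin of simple epithelia, with 5.02 in replicate 1 and 715 in replicate 2. For the main lists the value in replicate 1 alone or without replicate 2 is given beside the result. Without replicate 2, in a fit that assumes the lone METTL4-si library to vary like the other groups, 1717 genes (11.5% of those tested) were called higher again and 1402 (9.43%) lower again. By its own ratio to the Scr-si mean, each METTL4-si library alone was past 1.3-fold for 84.2% of the higher and 76.1% of the lower genes. In 4856 tested genes (32.7%) both METTL4-si libraries were above both Scr-si libraries, and in 4763 (32.0%) both were below, so that an order without overlap is common in this table.

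**Figure D1:**
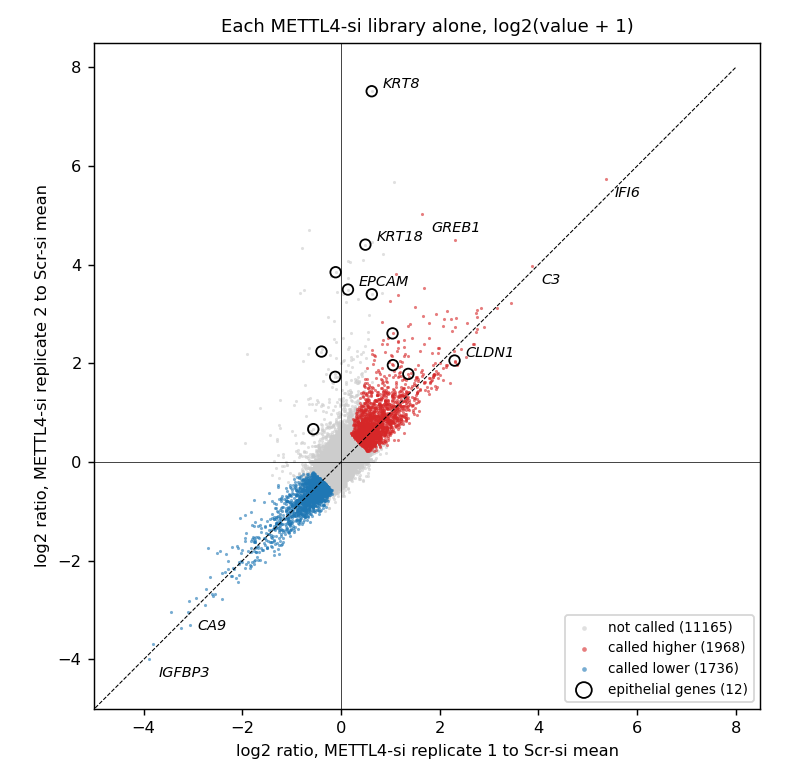
Each point is one of the tested genes, with the log2 ratio of METTL4-si replicate 1 to the Scr-si hypoxia mean on the horizontal axis and that of replicate 2 on the vertical axis, both from log2(value + 1). Genes called higher (1968, red) and lower (1736, blue) lie along the dashed line of equal ratios, while most of the 12 epithelial genes (open circles) lie above it, KRT8 farthest.

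Genes of the hypoxia response fell as a group. All 30 tested members of the list, of 32 in it, were lower in METTL4-si cells, with a median log2 fold change of -1.46 and a range from -3.07 to -0.68. The median was -1.38 in replicate 1 alone and -1.50 in replicate 2 alone, and all 30 were lower again without replicate 2. CXCR4 and TXNIP were not analysed here. RORA reached 1 only in hypoxic Scr-si cells, so it could enter only as lower. The 30 of 30 called lower in this list compare with 11.7% of all tested genes. The members cover pH control, mitophagy, oxygen sensing, matrix hydroxylation and angiogenesis.

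CA9 (ENSG00000107159, chromosome 9 from 35673925 to 35681156, GRCh37), a carbonic anhydrase that disposes of acid at the cell surface, had 0.358 and 1.17 in normoxia, 54.0 and 56.2 in hypoxic Scr-si cells and 5.53 and 5.84 in METTL4-si cells. It was 8.39-fold lower with METTL4-si (log2 fold change -3.07, SE 0.207, adjusted p = 0.000104 by limma) and still above its normoxic level. ANGPTL4, a secreted inhibitor of lipoprotein lipase, went from 23.2 and 27.4 to 3.33 and 3.02 (log2 fold change -2.65). Those METTL4-si values also lay below the normoxic values of 10.8 and 10.9. PPP1R3C, which targets a phosphatase to glycogen, fell from 72.4 and 74.5 to 15.1 and 14.0. PPFIA4, a liprin of cell contacts, went from 117 and 123 to 28.5 and 29.1. BNIP3, a receptor for mitophagy, went from 353 and 346 to 120 and 85.1, with 97.2 and 98.0 in normoxia. VEGFA, the main vascular growth factor, was among the least affected, with 440 and 432 in Scr-si and 267 and 231 in METTL4-si cells (log2 fold change -0.81), well above its 70.2 and 83.8 in normoxia. The level left in METTL4-si cells thus ranged from below the normoxic level to far above it, depending on the gene.

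The promoters of the 4 genes of this list with the lowest log2 fold changes among those with ACGTG in the window are shown because they carry the element that HIF-1 binds. Each sequence runs 5′ to 3′ from 250 bases before to 50 after the transcript start in RefSeq (GRCh38.p14), with ACGTG and GCGTG on either strand in capitals. A match on the other strand reads CACGT or CACGC.
CA9, chr9:35673678-35673977 (plus strand): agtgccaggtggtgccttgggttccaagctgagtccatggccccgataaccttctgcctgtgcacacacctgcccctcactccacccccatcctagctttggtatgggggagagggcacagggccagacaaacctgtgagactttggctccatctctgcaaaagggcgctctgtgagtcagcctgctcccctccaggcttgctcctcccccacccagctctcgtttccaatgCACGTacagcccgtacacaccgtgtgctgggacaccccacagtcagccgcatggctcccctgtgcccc
ANGPTL4, chr19:8363905-8364204 (plus strand): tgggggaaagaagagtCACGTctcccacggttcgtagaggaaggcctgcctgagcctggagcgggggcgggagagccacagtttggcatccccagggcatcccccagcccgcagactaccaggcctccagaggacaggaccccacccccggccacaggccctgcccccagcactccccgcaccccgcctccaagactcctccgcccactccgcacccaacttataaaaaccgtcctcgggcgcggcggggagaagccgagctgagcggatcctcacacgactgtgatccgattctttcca
PPP1R3C, chr10:91633022-91633321 (minus strand): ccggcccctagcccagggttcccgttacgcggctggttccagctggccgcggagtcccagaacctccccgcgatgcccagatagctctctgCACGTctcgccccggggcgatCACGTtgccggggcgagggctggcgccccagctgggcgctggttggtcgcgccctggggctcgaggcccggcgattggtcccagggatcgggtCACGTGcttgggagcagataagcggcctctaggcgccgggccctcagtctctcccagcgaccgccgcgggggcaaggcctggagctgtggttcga
PPFIA4, chr1:203026241-203026540 (plus strand): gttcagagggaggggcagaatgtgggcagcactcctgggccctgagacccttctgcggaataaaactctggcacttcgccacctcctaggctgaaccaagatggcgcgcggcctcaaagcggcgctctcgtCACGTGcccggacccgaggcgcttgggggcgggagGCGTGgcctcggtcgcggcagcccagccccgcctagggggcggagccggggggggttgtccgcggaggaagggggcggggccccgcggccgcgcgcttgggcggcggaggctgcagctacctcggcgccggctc
The match of CA9 begins 18 bases before the start, that of ANGPTL4 234 bases before it. PPP1R3C and PPFIA4 also hold CACGTG, in which matches on both strands overlap. Among 26 hypoxia response genes with a RefSeq promoter, 61.5% had ACGTG on either strand, against 32.0% of 1189 genes called lower, 21.3% of 1435 called higher, 27.2% of 10218 tested genes and 21.6% of all 27305 promoters. With GCGTG included, the shares were 76.9%, 64.8%, 54.8%, 63.7% and 48.4% in this order. These are counts of letters in a window and not of bound sites.

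Enzymes and carriers of glycolysis fell as well. Of 21 glycolysis genes tested 17 fell and 1 rose, with a median log2 fold change of -0.87, the same in replicate 1 alone, and 18 were lower without replicate 2. HK2, the hexokinase that traps glucose in the cell, had 93.1 and 98.5 in normoxia, 301 and 307 in Scr-si hypoxia and 99.8 and 88.0 in METTL4-si cells (log2 fold change -1.69, SE 0.0777, adjusted p = 2.48e-05). SLC2A1, the glucose carrier GLUT1 on chromosome 1 from 43391024 to 43424564, went from 485 and 505 to 172 and 183 (log2 fold change -1.48, adjusted p = 2.69e-05 by limma). Both METTL4-si libraries remained above the 88.3 and 96.3 of normoxia. LDHA, which turns pyruvate into lactate, went from 3596 and 3657 to 1647 and 1312, below its 2205 and 2220 in normoxia. SLC2A3, the glucose carrier GLUT3, was the exception and rose from 55.7 and 57.8 to 90.4 and 76.0 (log2 fold change 0.54, adjusted p = 0.0163 by limma). HK1, PFKM and ALDOC had log2 fold changes of -0.25, -0.03 and -0.01 and did not pass. The METTL4-si libraries disagreed on ALDOC, with 0.422 in replicate 1 and 2.06 in replicate 2 against 1.01 and 1.19 in Scr-si cells. PGAM1 (log2 fold change -1.48) and other enzymes of this list have processed pseudogenes that may share reads with them.

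**Figure D2:**
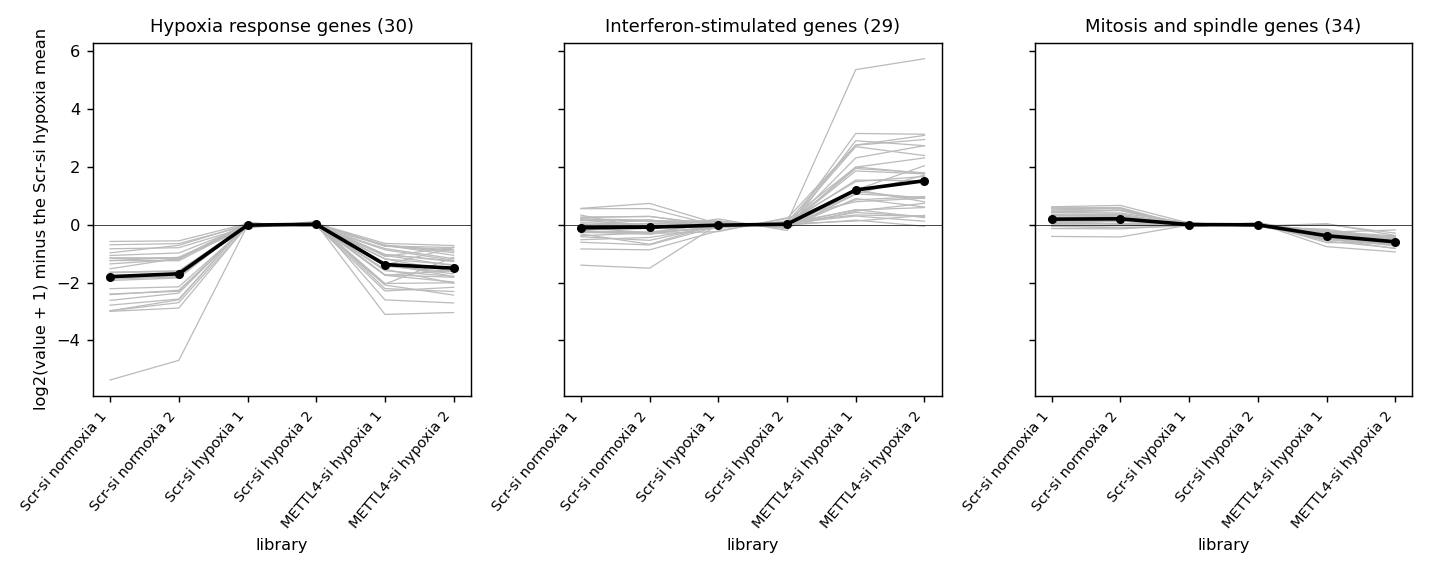
Log2(value + 1) of each member minus its mean in the 2 hypoxic Scr-si libraries (vertical axis) in the 6 libraries (horizontal axis) for 30 hypoxia response, 29 interferon-stimulated and 34 mitosis genes, with a grey line per gene and the median in black. All hypoxia response genes drop in both METTL4-si libraries, most interferon-stimulated genes rise in both, and the mitosis genes fall by less.

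Among 12 tested subunits of HIF, its cofactors and the oxygen sensors, 1 rose and 4 fell. These are 8.33% and 33.3%, against 13.2% and 11.7% of all tested genes. Of the 4, EGLN1 and EGLN3 are also counted in the hypoxia response list. HIF1A had 497 and 459 in Scr-si and 498 and 427 in METTL4-si cells (log2 fold change -0.05, which did not pass), and ARNT, its partner, had a log2 fold change of 0.05. EPAS1, which encodes HIF-2α, fell by 0.38 on the log2 scale, a call that was lost without replicate 2. VHL, which marks the factors for degradation, rose from 38.4 and 36.4 to 54.1 and 54.3 (log2 fold change 0.52). The hydroxylase genes EGLN1 and EGLN3, themselves switched on by HIF, fell by 1.40 and 1.09, and EGLN2 had a log2 fold change of 0.25 that did not pass. ZMIZ1, a coactivator that the study followed, had 145 and 145 in normoxia, 180 and 181 in Scr-si hypoxia and 97.5 and 120 in METTL4-si cells (log2 fold change -0.74, SE 0.0957, adjusted p = 0.00153 by limma).

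Among 13 writers and erasers of adenine methylation 1 fell and 0 rose, or 1 and 1 without replicate 2. ALKBH5, which removes N6-methyladenosine from RNA, fell from 152 and 160 to 77.2 and 90.9 (log2 fold change -0.89), below its 114 and 114 in normoxia. METTL3, the main writer of this mark in mRNA, had 42.1 and 42.0 in Scr-si and 41.8 and 42.1 in METTL4-si cells. The shares called lower were 7.69% of these writers and erasers and 17.6% of 17 histone lysine demethylase genes, against 11.7% of all tested genes. Of the demethylase genes 3 fell and 0 rose. These were KDM3A, KDM4C and KDM4B, with log2 fold changes of -1.14, -0.76 and -0.66, and all 3 had been higher in hypoxic Scr-si cells than in normoxia.

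Secreted factors were among the largest decreases. IGFBP3 (ENSG00000146674, chromosome 7 from 45951844 to 45961473, GRCh37), which binds insulin-like growth factors, had 14.3 and 21.5 in normoxia, 328 and 329 in Scr-si hypoxia and 21.3 and 19.8 in METTL4-si cells. The difference was 15.3-fold (log2 fold change -3.93, SE 0.161, adjusted p = 2.09e-05 by limma), the largest decrease among genes with a mean value of at least 5. Of 16 angiogenic and secreted factors 9 fell and 0 rose (median log2 fold change -0.59, replicate 1 alone -0.66). The share lower was 56.25%, against 11.7% of all tested genes. This list shares at least ANGPTL4 and STC2 with the hypoxia response list, so its count is not separate evidence. STC1 fell by 2.18 and STC2 by 1.59 on the log2 scale, both stanniocalcins, and PGF, a relative of VEGFA, fell by 1.32. F3, tissue factor, which starts coagulation, went from 274 and 271 to 31.6 and 26.8. ARTN, a ligand of the GDNF family, went from 49.5 and 50.7 to 6.61 and 7.60.

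UCA1 (ENSG00000214049), a lncRNA first described in bladder cancer, lies on chromosome 19 from 15939016 to 15947138 (GRCh37). It had 127 and 125 in normoxia, 30.3 and 29.4 in Scr-si hypoxia and 2.25 and 2.01 in METTL4-si cells (log2 fold change -3.30, SE 0.0854, adjusted p = 5.9e-06 by limma). UCA1 was thus already lower in hypoxia than in normoxia, and lower again with METTL4-si. Of 14 lncRNAs tested 3 fell (21.4%, against 11.7% of all tested genes) and 2 rose (14.3%, against 13.2%). With median-centred libraries 5 fell and 2 rose. DANCR and MIR210HG, the host of miR-210, fell by 0.93 and 0.83, while NEAT1 and MALAT1, nuclear lncRNAs, both rose by 0.58 on the log2 scale. MALAT1 went from 14274 and 13619 to 20893 and 20789.

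LncRNA RP11-390F4.3, which the study followed, was placed by its promoter primers at ENSG00000225489 on chromosome 9, with a transcript start at 6716495 (GRCh37, plus strand) 6 bases from the start that the primers give. It had 0.358 and 0.336 in normoxia, 1.59 and 2.25 in hypoxic Scr-si cells, and 0.469 in replicate 1 and 1.41 in replicate 2 of METTL4-si. The log2 fold change of -0.62 did not pass (adjusted p = 0.090 by limma). Without replicate 2 it passed, at -0.98 (adjusted p = 0.00116), a comparison that rests on few reads of ENSG00000225489. Its gene overlaps the start of KDM4C on the same strand, so reads may be split between them. The remaining decreases among the 10 largest were ACTC1, cardiac actin (31.2 and 37.3 to 1.501 and 1.71), SAMD11 (61.9 and 69.7 to 5.16 and 7.15), PLAC8 (16.9 and 15.0 to 1.501 and 1.26), and CGB8 with ENSG00000269706. The last pair are a chorionic gonadotropin beta gene and a pseudogene beside it, with log2 fold changes of -2.94 and -2.85, and near-identical copies there may share reads.

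**Figure D3:**
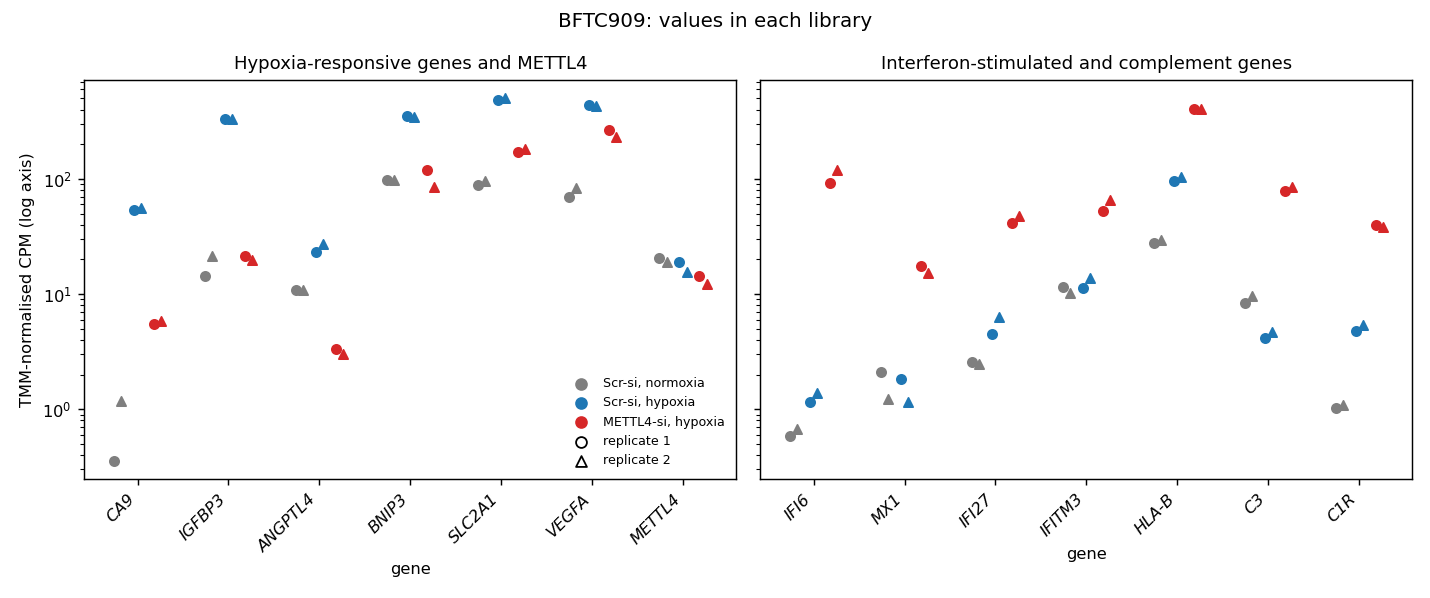
Values (TMM-normalised CPM, log axis) of named genes in each library, coloured by group, with circles for replicate 1 and triangles for replicate 2. CA9, IGFBP3, ANGPTL4, BNIP3, SLC2A1 and VEGFA drop from Scr-si to METTL4-si hypoxia and METTL4 itself by less, while the interferon-stimulated and complement genes rise in both METTL4-si libraries.

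In the other direction, genes induced by interferon rose. Interferons signal through a complex that includes STAT2 and IRF9, which binds an element with 2 copies of GAAA set 2 bases apart, and the induced genes restrain viral entry, copying and translation. Of 29 such genes tested, of 33 listed, 24 rose and 0 fell, with a median log2 fold change of 1.39, 1.20 in replicate 1 alone and 1.52 in replicate 2 alone. The 24 are 82.8% of those tested, against 13.2% of all tested genes, and include OAS2 and BST2, which could enter only as higher. The number that rose was 24 without replicate 2 as well, and 23 without replicate 1 or with median-centred libraries.

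IFI6 (ENSG00000126709), a mitochondrial antiviral protein encoded on chromosome 1 from 27992575 to 27998723 (GRCh37, minus strand), had 0.582 and 0.671 in normoxia, 1.16 and 1.39 in Scr-si hypoxia and 92.2 and 120 in METTL4-si cells. It was 46.8-fold higher on the log2(value + 1) scale (log2 fold change 5.55, SE 0.152, adjusted p = 5.9e-06 by limma), the largest increase among genes with a mean value of at least 5. MX1, a dynamin-like GTPase that blocks viruses, went from 1.83 and 1.15 to 17.4 and 15.4. IFI27 went from 4.48 and 6.35 to 41.6 and 47.9. OAS2, a synthase of oligoadenylates that activate RNase L, went from 0.241 and 0.0478 to 9.14 and 8.96, and OAS3 from 15.8 and 18.0 to 49.1 and 55.8. Both METTL4-si libraries were above both Scr-si libraries in these 5 genes, an order that 32.7% of all tested genes showed and that was required for naming IFI6, MX1 and IFI27. OAS2 reached 1 only in METTL4-si cells, so the filter had fixed this order for it.

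Some sensors and restriction factors also rose. RIGI and IFIH1, which recognise foreign RNA in the cytosol, rose from 4.10 and 3.92 to 18.2 and 16.4 and from 3.18 and 3.01 to 13.8 and 12.8. BST2, which tethers budding viruses, went from 0.193 and 0.334 to 7.504 and 9.72. BST2 too reached 1 only in METTL4-si cells and could enter only as higher. IFITM3, a block to viral fusion, went from 11.4 and 13.7 to 52.6 and 65.8, although the IFITM genes are alike in sequence and may share reads. The signalling genes changed less. STAT2 rose by 0.55 on the log2 scale, while IRF9 and IRF1 had log2 fold changes of 0.22 and 0.31 that did not pass. XAF1 had a log2 fold change of 0.05. The interferon genes IFNB1, IFNL1, IFNL2, IFNL3 and IFNE were not analysed here. A list of receptors and sensors, written after values were seen, had 6 higher and 2 lower of 15 tested, the lower ones being JAK1 (-0.56), a kinase of these receptors, and IFNGR2 (-0.45). DHX58, among the higher, reached 1 only in METTL4-si cells. The DNA sensor CGAS (-0.27) and the adaptors and kinases MAVS (0.10) and TBK1 (-0.17) did not pass.

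The promoters of the 3 interferon-stimulated genes with the highest log2 fold changes among those that hold this GAAA pair are shown in the same way, with that motif on either strand in capitals.
IFI6, chr1:27672143-27672442 (minus strand): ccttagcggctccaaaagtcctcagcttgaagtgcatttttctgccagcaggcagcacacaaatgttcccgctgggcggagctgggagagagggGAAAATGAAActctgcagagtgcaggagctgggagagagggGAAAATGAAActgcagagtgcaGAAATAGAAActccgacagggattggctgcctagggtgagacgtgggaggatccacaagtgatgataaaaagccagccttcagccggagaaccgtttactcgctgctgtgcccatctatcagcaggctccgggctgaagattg
BST2, chr19:17405581-17405880 (minus strand): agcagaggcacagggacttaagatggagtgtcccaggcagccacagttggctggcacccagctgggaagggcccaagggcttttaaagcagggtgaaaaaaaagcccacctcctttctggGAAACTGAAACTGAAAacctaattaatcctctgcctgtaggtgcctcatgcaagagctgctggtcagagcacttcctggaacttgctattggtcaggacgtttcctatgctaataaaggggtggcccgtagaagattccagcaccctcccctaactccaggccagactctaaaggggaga
IFI27, chr14:94110486-94110785 (plus strand): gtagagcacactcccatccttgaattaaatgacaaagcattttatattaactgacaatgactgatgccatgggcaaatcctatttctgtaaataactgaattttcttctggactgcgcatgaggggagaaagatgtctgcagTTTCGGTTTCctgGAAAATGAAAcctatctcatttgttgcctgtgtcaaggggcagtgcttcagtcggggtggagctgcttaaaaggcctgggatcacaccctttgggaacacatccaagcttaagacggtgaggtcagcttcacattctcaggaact
IFI6 holds 3 matches, BST2 a pair that overlap and IFI27 a pair on opposite strands (the first reads as TTTC on this strand). The motif was in 68.2% of 22 interferon-stimulated genes with a RefSeq promoter, 5.16% of genes called higher, 2.10% of genes called lower, 2.81% of tested genes and 3.65% of all promoters.

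Outside these lists, 3 of the 10 largest increases were LINC01050, a lncRNA, with 1.69 and 1.39 in Scr-si and 26.6 and 22.6 in METTL4-si cells, ADAMTS14, a procollagen protease (2.46 and 2.20 to 21.1 and 26.03), and MTSS1, a membrane-bending protein (1.59 and 1.72 to 14.6 and 17.8). Their order without overlap was a condition of being named.

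Genes of antigen presentation by MHC class I and of complement were written down as lists after some of them had been seen among the largest changes, so their counts are no independent evidence. Of 17 MHC class I genes 13 were higher and 2 lower (14 and 2 without replicate 2). HLA-B had 27.97 and 29.5 in normoxia, 95.6 and 104 in Scr-si hypoxia and 404 and 404 in METTL4-si cells (log2 fold change 2.01). B2M, the light chain, went from 695 and 678 to 1506 and 1228. TAP1, a peptide transporter subunit, rose from 21.9 and 25.1 to 57.5 and 60.5, and the immunoproteasome subunits PSMB8 and PSMB9 had log2 fold changes of 1.22 and 1.38. With both METTL4-si libraries the 2 lower genes were CALR and PDIA3, general chaperones of the endoplasmic reticulum. PDIA3 was short of 1.3-fold in replicate 1 alone (log2 ratio -0.37). The immunoproteasome subunit PSMB10 did not rise. It had 1.83 and 2.58 in Scr-si cells, 1.13 in METTL4-si replicate 1 (log2 ratio -0.58) and 2.22 in replicate 2, and did not pass. HLA genes resemble each other and vary between people, so reads may be split or lost among them.

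Of 10 complement genes tested 5 rose and 0 fell, or 6 without replicate 2. C3 (ENSG00000125730) is the hub on which the complement pathways meet, encoded by the minus strand of chromosome 19 (6677715 to 6730573, GRCh37). It was low without the knockdown. It had 8.41 and 9.61 in normoxia, 4.14 and 4.68 in Scr-si hypoxia and 78.0 and 84.4 in METTL4-si cells, a 15.2-fold difference (log2 fold change 3.93, SE 0.109, adjusted p = 5.9e-06 by limma). The classical pathway proteases C1R and C1S went from 4.77 and 5.40 to 40.0 and 38.3 and from 33.5 and 31.6 to 179 and 164. C1S had 7.70 and 9.10 in normoxia, so in Scr-si cells it was also higher in hypoxia than in normoxia. The inhibitors CD46, CD55 and CD59 did not pass, with log2 fold changes of 0.18, 0.39 and -0.02. Of 14 NF-κB and inflammatory genes 0 rose and 1 fell (PTGS2, a prostaglandin synthase, log2 fold change -0.56), and the median was 0.05. PTGS2 reached 1 only in hypoxic Scr-si cells, so it could enter only as lower. The share of this list called lower was 7.14%, against 11.7% of all tested genes. Without replicate 2 the counts were 3 higher and 2 lower, and with median-centred libraries the median was -0.05. CLU, clusterin, had 0.145 and 0.0955 in Scr-si cells, 1.03 in METTL4-si replicate 1 and 19.7 in replicate 2. It did not pass, though both METTL4-si libraries were higher (log2 ratio 0.86 in replicate 1 alone).

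**Figure D4:**
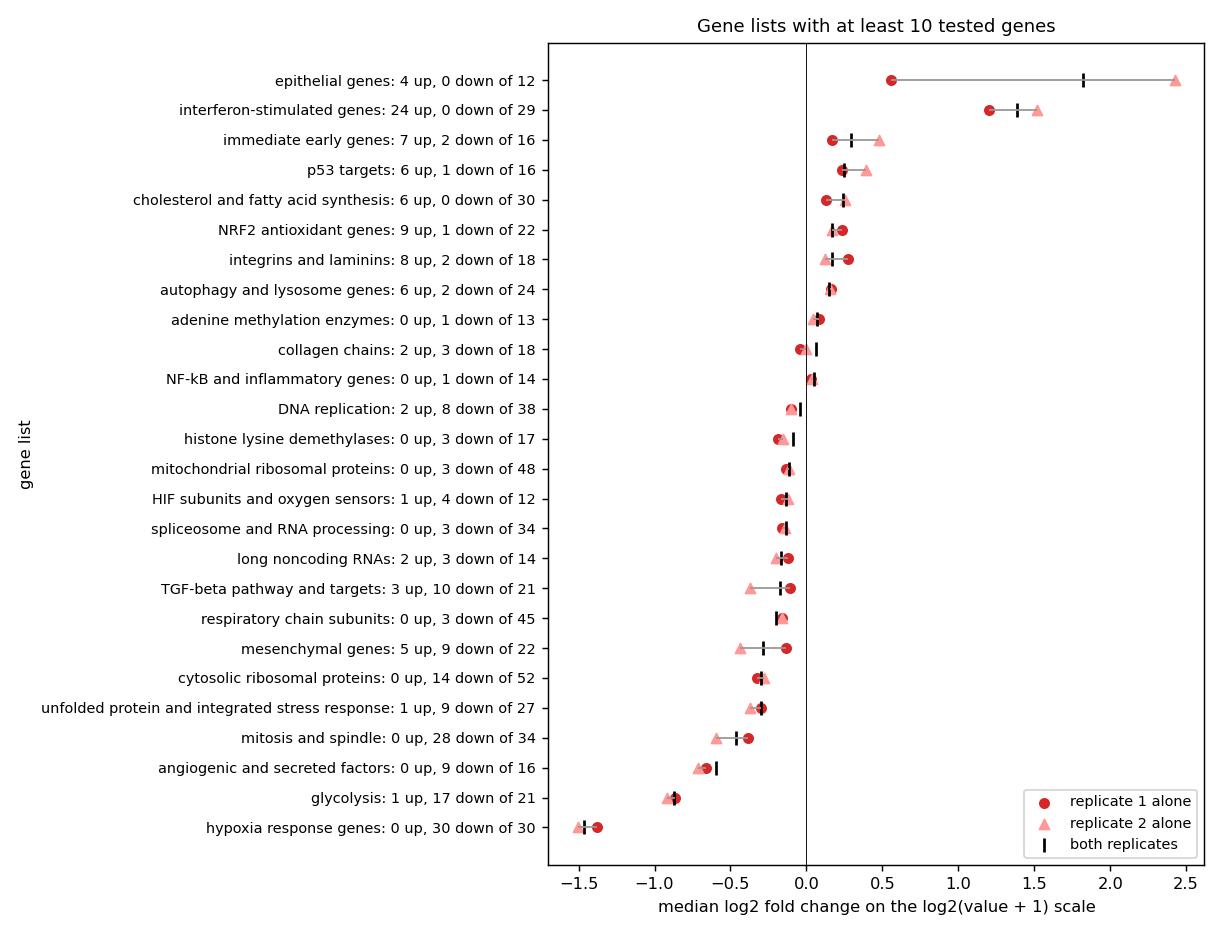
Median log2 fold change of each list with at least 10 tested genes (horizontal axis) for METTL4-si replicate 1 alone (circles), replicate 2 alone (triangles) and both (black ticks), with the number of members called in each direction beside the name. The hypoxia response list lies lowest and the interferon-stimulated list near the top in both libraries, and the epithelial list differs most between the libraries.

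Genes of cell division fell by smaller amounts. Of 34 mitosis and spindle genes 28 were lower and 0 higher, with a median log2 fold change of -0.46, -0.38 in replicate 1 alone and -0.59 in replicate 2 alone. Without replicate 2 the number lower was 18. BIRC5, survivin, had 180 and 185 in normoxia, 122 and 130 in Scr-si hypoxia and 73.8 and 64.9 in METTL4-si cells (log2 fold change -0.85). AURKA, a spindle kinase, went from 131 and 140 to 87.7 and 86.5, and MKI67, the proliferation marker Ki-67, from 1559 and 1543 to 1167 and 1097. The 38 genes of DNA replication were mostly not called. Of these, 8 were lower (21.1%) and 2 higher (5.26%), against 11.7% and 13.2% of all tested genes. With median-centred libraries 11 were lower and 0 higher. RRM2 and TYMS, which supply deoxynucleotides, fell by 0.86 and 0.77, while PCNA, the sliding clamp, had a log2 fold change of -0.09 that did not pass. In bulk RNA, fewer cells in a phase and less RNA per cell cannot be told apart.

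Some ribosomal protein and chaperone genes fell. Of 52 cytosolic ribosomal protein genes 14 fell and 0 rose (median -0.30, or 28 lower with median-centred libraries), led by RPSA, which went from 671 and 701 to 486 and 428. Of 27 genes of the unfolded protein and integrated stress responses 9 fell and 1 rose, or 15 and 1 with median-centred libraries. HSPA5, the chaperone BiP, went from 713 and 753 to 400 and 366 and HSP90B1 had a log2 fold change of -0.83, while CEBPB, a transcription factor, rose by 0.60. ATF4, the main factor of the integrated stress response, had a log2 fold change of -0.32 that did not pass. Of 45 respiratory chain subunits 3 were lower, of 48 mitochondrial ribosomal proteins 3 and of 34 splicing factors 3, with 0 higher in all 3 lists. These shares of 6.67%, 6.25% and 8.82% lie below the 11.7% of all tested genes that were called lower. Medians of these lists lay between -0.20 and -0.11. With median-centred libraries 7 respiratory and 6 splicing genes were lower. Ribosomal protein genes have many processed copies that may share reads.

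The mesenchymal programme split. Of 22 mesenchymal genes 9 fell and 5 rose (median -0.29, replicate 1 alone -0.14). SNAI1, which encodes the repressor Snail, had 4.74 and 6.71 in normoxia, 16.0 and 17.6 in Scr-si hypoxia and 3.42 and 4.18 in METTL4-si cells (log2 fold change -1.89, SE 0.168, adjusted p = 0.000297 by limma). TAGLN, an actin-binding protein, went from 8.72 and 7.98 to 1.74 and 2.82, and TGFBI, a matrix protein, from 1134 and 1178 to 483 and 430. VIM, vimentin, went from 5242 and 5476 to 4171 and 3469, a call that was lost without replicate 2. FBN1, fibrillin-1 of elastic fibres, went the other way, from 215 and 221 to 591 and 483, and POSTN, ACTA2, MMP14 and ZEB1 had log2 fold changes of 1.34, 0.59, 0.54 and 0.46. With median-centred libraries 4 of this list rose and 11 fell, and the call of ZEB1 was lost. FN1, fibronectin, did not pass, with 59804 and 60242 against 70229 and 64797. Of the 5 EMT regulators of the study that were tested, SNAI1 fell and ZEB1 rose, and TWIST1, ZEB2 and TCF3 did not pass. This list was taken from the study.

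Within the TGF-β list 10 of 21 genes fell and 3 rose. SMAD6, an inhibitory SMAD, went from 34.7 and 39.3 to 5.91 and 9.92, and ID1, ID2 and ID3, inhibitors of DNA binding that respond to BMP, fell as well. ID2 went from 49.2 and 47.2 to 8.77 and 12.4 and ID3 from 63.6 and 63.3 to 14.1 and 18.2. INHBA, an activin subunit, rose by 0.82. A list of BMP and ID genes was written after values were seen. It shares at least SMAD6, ID1, ID2 and ID3 with the TGF-β list, so its counts are no separate evidence. In the BMP and ID list 7 of 12 tested fell and 2 rose, with ID4 (-0.73) and SMAD9 (-1.51) among the lower. The receptors TGFBR1 and TGFBR2 and the mediators SMAD2, SMAD3 and SMAD4 had log2 fold changes between -0.14 and 0.23, and none of these passed.

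Matrix genes were mixed. Among 18 integrin and laminin genes 8 rose and 2 fell, or 7 and 4 without replicate 2. LAMA3, a laminin chain of the basement membrane, went from 19.9 and 20.2 to 74.9 and 68.4. LAMA5 had 2.07 and 2.20 in Scr-si cells, 14.5 in replicate 1 and 69.6 in replicate 2, so its log2 fold change of 3.40 (2.31 in replicate 1 alone) depends on the library. ITGB3 and ITGB8 both fell by 1.02. The integrin and laminin list had 44.4% higher and 11.1% lower, the latter near the 11.7% of all tested genes. Of 18 collagen chains 3 fell and 2 rose, shares near those of all tested genes (11.7% lower and 13.2% higher). The number that rose was 6 without METTL4-si replicate 1 and 1 without replicate 2, with 3 and 4 lower. COL5A1, COL1A2 and COL1A1, of fibrillar collagens, had log2 fold changes of -1.36, -0.90 and -0.67, and COL4A5, of basement membranes, and COL16A1 rose by 0.57 and 0.41, the latter not without replicate 2.

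Of 22 NRF2 antioxidant genes 9 rose and 1 fell, or 7 and 1 without replicate 2. The aldo-keto reductases AKR1B10, AKR1C2, AKR1C3 and AKR1C1 led, with log2 fold changes of 1.87, 1.83, 1.58 and 1.03, and the AKR1C genes are close enough in sequence to share reads. NQO1, often used as the marker of NRF2, had -0.25 and did not pass, and HMOX1, heme oxygenase, fell by 0.68. The NRF2 list had 40.9% higher and 4.55% lower, against 13.2% and 11.7% of all tested genes. Of 24 autophagy and lysosome genes 6 rose (25%) and 2 fell (8.33%), against 13.2% and 11.7% of all tested genes. The median of this list was 0.15, and 0.16 in replicate 1 alone. The cathepsin gene CTSB went from 458 and 477 to 923 and 891 and CTSL from 182 and 193 to 362 and 326, and NPC1, which exports cholesterol from lysosomes, from 297 and 309 to 590 and 542. Of 30 cholesterol and fatty acid synthesis genes 6 rose and 0 fell, which is 20% against 13.2% of all tested genes, and 3 and 0 with median-centred libraries. Among them were HMGCS1 and ELOVL6 with log2 fold changes of 0.57 and 1.00.

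Epithelial genes divide the METTL4-si libraries. Of 32 such genes 12 were tested, and 9 of the 12 were at least 2-fold higher in replicate 2 than in replicate 1. The median log2 ratio to Scr-si was 0.56 in replicate 1 alone and 2.42 in replicate 2 alone, and 4 of the 12 were called higher and 0 lower with both libraries, against 7 and 1 without replicate 2. The values of all listed epithelial genes in the table summed to 264.5 and 264.3 in normoxia, 82.6 and 85.3 in hypoxic Scr-si cells, 227.8 in METTL4-si replicate 1 and 1493.5 in replicate 2. KRT18, the partner of KRT8, had 24.2 in replicate 1 and 379 in replicate 2, and EPCAM had 1.69 and 26.5. KRT8 and KRT18 overlap on opposite strands, and the strand setting of the counting is not given in the sources used here. CLDN1 of tight junctions and CDS1, a lipid enzyme, were high in both libraries. CLDN1 had 117 and 118 in normoxia, 29.7 and 30.05 in Scr-si hypoxia and 151 and 127 in METTL4-si cells (log2 fold change 2.18, adjusted p = 2.08e-05 by limma), and CDS1 went from 3.85 and 4.49 to 12.3 and 16.8.

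Other genes had an excess in replicate 2. GFRA1, a receptor of the GDNF family, had 0.891 in replicate 1 and 76.2 in replicate 2. SYTL2, a vesicle protein, had 2.67 and 128, SULF2, a sulfatase of heparan chains, 4.596 and 135, and CRABP2, a carrier of retinoic acid, 0.469 and 27.0. GATA3, a transcription factor of urothelial and luminal breast cells that was below the filter, had 0.844 and 128. In replicate 1 alone GFRA1, SYTL2 and CRABP2 were below the Scr-si mean, with log2 ratios of -0.65, -0.80 and -0.82, while SULF2 was above it. GREB1, induced by oestrogen in breast cells, was among the 10 largest increases with 10.6 and 121 against 2.31 and 3.20 in Scr-si cells. In the FADU cells of the same series, a head and neck cancer line scaled in a table of its own, GFRA1 was at 125 in METTL4-si replicate 1, 24.3 in normoxia replicate 1 and 0 in the 4 other libraries. SYTL2 and CRABP2 were likewise highest in FADU METTL4-si replicate 1, at 209 and 46.3. Whether cells or RNA of another source were in these libraries was not tested.

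**Figure D5:**
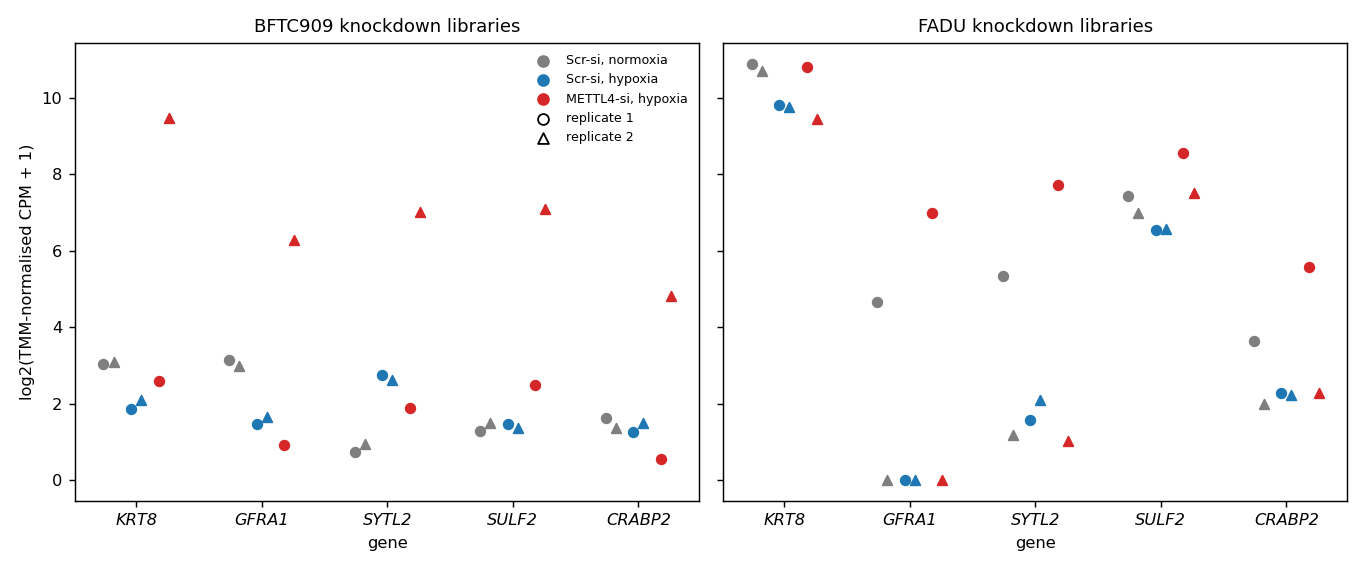
Log2(value + 1) (vertical axis) of 5 of the 6 genes with the largest excess of METTL4-si replicate 2 over replicate 1 in BFTC909 (left), and of the same genes in the FADU libraries (right), with circles for replicate 1 and triangles for replicate 2. In BFTC909 the excess is in the triangle of METTL4-si, and in FADU GFRA1, SYTL2 and CRABP2 are high in the circles of METTL4-si and normoxia.

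Markers of other cell types were mostly below the filter or not analysed here. Of 15 urothelial markers, which should mark a cell line of the renal pelvis, 4 were in the table and only PPARG was tested. It went from 10.9 and 10.7 to 22.2 and 20.4 (log2 fold change 0.92). Of the uroplakins that define mature urothelium, UPK3B was below the filter and UPK1A, UPK1B, UPK2 and UPK3A were not analysed here, so the labelled origin could not be checked on them. The summed urothelial level was 12.3 and 11.9 in hypoxic Scr-si cells, 24.3 in METTL4-si replicate 1 and 150 in replicate 2, of which GATA3 made up 128. Of the squamous markers 2 of 22 were tested and both fell, S100A2 by 1.11 and PKP1 by 0.85. Of the luminal breast markers 4 of 16 were tested, with GREB1 higher and CA12 lower. Their summed level, GATA3 included, was 1182 and 1213 in hypoxic Scr-si cells, 444 in METTL4-si replicate 1 and 736 in replicate 2. Most of the Scr-si sum was CA12, also in the hypoxia response list, with 996 and 1017. In METTL4-si replicates 1 and 2 CA12 had 303 and 285, while GREB1 had 10.6 and 121. The fall of the sum is thus mainly that of CA12. The fibroblast list had 2 higher and 3 lower of 7 tested and the endothelial list 1 and 1 of 3. The fibroblast shares of 28.6% and 42.9% compare with 13.2% and 11.7% of all tested genes. Of 8 leukocyte markers CD14 alone was tested. It was called higher, from 1.59 and 1.24 to 2.86 and 2.22 (adjusted p = 0.0483 by limma). That call was lost with median-centred libraries and with edgeR. The pan-leukocyte and T-cell genes PTPRC and CD3E were not analysed here.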

How the data were processed

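The authors sequenced ribosome-depleted RNA (stranded kit, paired reads) and trimmed with Trim Galore, aligned to hg19 with HISAT2, counted with htseq-count and scaled in edgeR. Versions, settings, annotation and the strand setting of the counting are not given in the sources used here. The deposited values are signal, namely TMM-normalised CPM. Read counts per gene could be recovered from them, whole within 0.05 read, and the table starts at 9 reads in the second-highest library. The authors' own comparison tables, with fold changes and p-values, and the mutant and overexpression tables were not used.

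Groups came from the labels. Genes that reached 1 in 2 or more of the 6 BFTC909 libraries were tested on log2(value + 1) with limma 3.58.1 (eBayes with trend, R 4.3.3), all 6 libraries sharing 1 estimate of the spread. Fold changes on this scale understate the change of low genes. METTL4-si replicates differed more than those of the other groups, so the shared estimate may understate their spread. Alternatives (19) included edgeR 4.0.16 and DESeq2 1.42.0 on the recovered reads. The code was tested on simulated data. The correlation of replicate differences between the compared groups was 0.15, but 0.02 and 0.00 against normoxia, so replicate numbers were not taken as pairs.

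Named genes were METTL4, RP11-390F4.3, ZMIZ1, CA9 and SLC2A1, the 10 largest calls in each direction with a mean of at least 5, no overlap and replicate 1 alone past 1.3-fold in the same direction, the 6 with the largest excess in replicate 2, and list members. Members and the 33 lists were chosen with earlier results of these data known, and 6 further lists and the interferon motif after values were seen. Other genes named for their excess in replicate 2 were chosen after their values were seen. Positions are GRCh37, and promoters are RefSeq (GRCh38.p14), matched by symbol. Precision rests on 19038795 to 24126269 reads on genes per library and on 2 libraries a group. A few list members are counted but not reported here by name.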

Additional observations from a re-analysis of the deposited data

How the results depend on the processing

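Without METTL4-si replicate 2 the log2 fold changes of GFRA1, SYTL2, CRABP2 and ENSG00000227184, named for their excess in that library, reversed to -0.65, -0.80, -0.82 and -0.75 and passed (4.71, 4.33, 3.43 and 3.48 without replicate 1), and no other of 116 named genes reversed under an alternative run. With median-centred libraries the medians of the collagen (-0.04), NF-κB (-0.05) and adenine methylation (-0.02) lists and of all tested genes (-0.09) turned negative. Higher and lower genes numbered 1308 and 1279 with a pseudocount of 5, 444 and 280 at 2-fold, 1981 and 1802 with edgeR, and 1597 and 1591 with DESeq2. They numbered 1518 and 1433 with only the 4 compared libraries in the fit. Leaving out 1 library gave 916 to 2977 higher and 939 to 2189 lower genes, with the lowest numbers without either Scr-si library (923 and 993 without replicate 1, 916 and 939 without replicate 2) and the highest without METTL4-si replicate 1. The METTL4 log2 fold change was -0.45 with median-centred libraries, where it passed, and ran from -0.49 to -0.22 over the left-out libraries. The median of the hypoxia response genes was -1.25 with a pseudocount of 5 and -1.56 with median-centred libraries. That of the glycolysis genes was -0.97 with median-centred libraries, and ran from -0.92 without METTL4-si replicate 1 to -0.83 without Scr-si replicate 2. Of the 116 genes 96 kept their call under all alternatives run and 13 lost it under at least 1. The cause of these differences was not tested. With a replicate block 2081 genes were higher and 1749 lower, which is given as a hint from shared numbers only. With 2 libraries a group, small changes of low genes cannot be told from the spread.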

Other observations

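Genes that respond to MAPK signalling, listed after values were seen, included 9 higher and 2 lower of 14 tested, or 10 and 2 without replicate 2. DUSP4, a phosphatase that limits MAPK, had 27.8 and 26.05 in normoxia, 1.40 and 1.48 in hypoxic Scr-si cells and 9.80 and 19.4 in METTL4-si cells. ETV5, a transcription factor of this pathway, went from 26.2 and 26.1 to 80.1 and 62.8. SPRY4 and SPRY2, feedback inhibitors, had log2 fold changes of 1.53 and 1.29, but SPRY1 fell by 2.16 and EPHA2, a receptor kinase, by 1.52. CCND1, cyclin D1, had 38.5 and 39.1 in Scr-si cells, 60.9 in METTL4-si replicate 1 and 191 in replicate 2. Of 16 immediate early genes 7 rose (43.8%) and 2 fell (12.5%), against 13.2% and 11.7% of all tested genes. Their median log2 ratio was 0.17 in replicate 1 alone and 0.48 in replicate 2 alone. EGR1 had a log2 fold change of 1.49 and DUSP1 of -1.56.

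Of 16 p53 target genes 6 rose and 1 fell, with the same counts without replicate 2. GDF15, a secreted stress factor, went from 1.98 and 2.20 to 13.5 and 22.1, CDKN1A, the cell cycle inhibitor p21, from 3.13 and 3.11 to 7.46 and 15.4, and FAS, a death receptor, from 16.5 and 15.7 to 41.4 and 30.9. MDM2 had a log2 fold change of 0.03 and did not pass. The p53 list had 37.5% higher and 6.25% lower, against 13.2% and 11.7% of all tested genes. All 3 chorionic gonadotropin beta genes tested fell. This list was written after values were seen and includes CGB8, named above among the largest decreases, so its count is no independent evidence. CGB5 went from 5.73 and 5.64 to 0.141 and 0.0503 and CGB7 fell by 0.79 on the log2 scale, and near-identical copies may share these reads.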
